A study of Mus musculus with 54 samples.

Results

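The RNA of 6 libraries of sorted microglia was compared, 3 from Ercc1 mutant mice given LPS (KO-LPS) and 3 from Ercc1 mutant mice given PBS (KO-PBS), with all genes of the count table taken as members. They are 6 of the 54 samples of the series, and 17460 of the 55536 genes in the table passed a filter on low counts and were tested. The mutants carried 1 Δ and 1 ko allele of Ercc1 (Δ/ko) in a cross of FVB and C57BL/6J mice, a model of defective DNA repair and accelerated ageing in which microglia take on a primed state. Both groups were 10 to 12 weeks old, received an intraperitoneal injection of LPS at 1 mg/kg or of PBS, and were killed 3 h later, so both carry the repair defect and differ in the injection. Control littermates (wt/Δ, wt/ko or wt/wt, named WT) given the same injections, 3 mice per treatment (WT-PBS and WT-LPS), entered the same fit. Cells were sorted as DAPI-negative, CD11b-high, CD45-intermediate and Ly6C-negative, and each library came from 1 mouse. Every cell of these animals carries the mutation, so the libraries do not separate a defect in microglia from one in the tissue around them.

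LPS, a glycolipid of the outer membrane of Gram-negative bacteria, is handed by LBP and CD14 to the receptor TLR4 on macrophages and microglia. Through the adaptor MYD88 this releases NF-kB and AP-1 and switches on early cytokine and chemokine genes, and through TRIF it activates IRF3 and a secondary interferon response. The same signals induce their own brakes, among them the NF-kB inhibitors NFKBIA and TNFAIP3, the SOCS proteins, the dual-specificity phosphatases and RNases such as ZC3H12A. Microglia exposed to such signals are also known to lower genes of their resting identity, whose expression depends on factors such as SALL1 and on TGF-beta. ERCC1 forms an endonuclease with XPF that cuts DNA in nucleotide excision repair and in the repair of crosslinks.

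The libraries held between 18243891 and 34659337 counts, and libraries of one group correlated at 0.952 to 0.981 (Pearson's r of log2 levels across genes). In every library, levels are CPM (counts per 1000000 counts, scaled by TMM), listed for KO_PBS_638, KO_PBS_641 and KO_PBS_642 in KO-PBS and for KO_LPS_193, KO_LPS_194 and KO_LPS_600 in KO-LPS. Ercc1 itself, whose mutant alleles can still give reads, was at 6.36, 5.14 and 8.18 CPM in KO-PBS and 4.67, 5.11 and 6.82 CPM in KO-LPS, and its groups overlapped (log2 fold change -0.25 ± 0.21 SE, adjusted p 0.368 by edgeR). Of 12 microglia markers all had counts, and their summed level lay between 39521 and 43029 CPM in KO-PBS and between 27209 and 36507 CPM in KO-LPS. One control stood apart: in Control_PBS_175 P2ry12 was at 1814 CPM, against 6934 and 7715 CPM in the other two WT-PBS libraries. Y-linked genes were expressed in 1 of 3 libraries of each KO group and in 2 of 3 of each WT group, so the KO comparison was balanced for the sex pattern, whereas the comparison of genotypes was not. Sex was not given in the sources used here. The mitochondrial share of counts was 2.88% to 3.45% in KO-PBS and 3.54% to 3.96% in KO-LPS.

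LPS changed the KO microglia in both directions. A gene was termed called where its adjusted p was below 0.01 and its log2 fold change was past 1 in either direction, and 1136 genes were higher in KO-LPS, 6.51% of those tested, and 1284 were lower, 7.35%. A gene passed the test where its adjusted p was below 0.05, whatever its fold change, and 3097 genes rose (17.7%) and 3370 fell (19.3%). The raised genes moved further. Their median absolute log2 fold change was 2.11 against 1.52 for the lowered genes, and 218 raised against 41 lowered genes lay past 4. The levels of KO-LPS and KO-PBS did not overlap for 9385 of the 17460 genes tested (53.8%), and each later remark on overlap is to be read beside that share. Among called genes they did not overlap for 1135 of the 1136 higher and all 1284 lower. For a called gene the gap between the groups thus comes with the call and adds no support to it. In their share of all counts, the called-higher genes went from 5.39% to 5.45% in KO-PBS to 17.1% to 22.4% in KO-LPS. The called-lower genes went from 6.61% to 6.80% of counts to 1.61% to 2.15%. Levels are relative to the library: with scaling by total counts in place of TMM the median of all genes shifted to -0.26 on the log2 scale, the counts became 846 higher and 2046 lower, and the part of calls that were higher went from 46.9% to 29.3%.

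**Figure D1:**
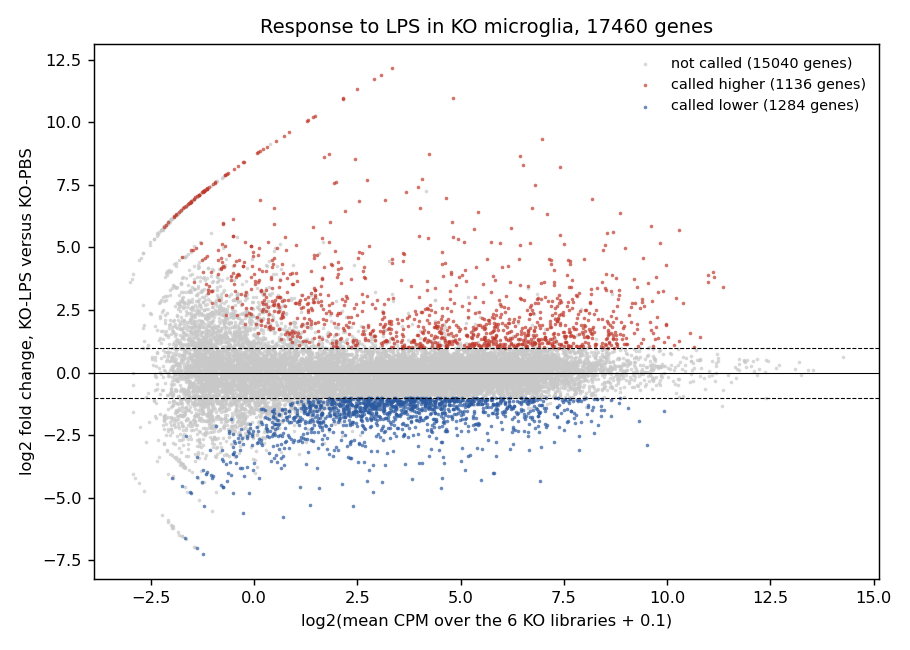
Log2 fold change in KO-LPS versus KO-PBS (vertical axis) against log2 of the mean CPM over the 6 KO libraries plus 0.1 (horizontal axis), 1 point per gene, with dashed lines at 1 and -1. The 1136 genes called higher reach further from 0 than the 1284 called lower, and both are found at low and high levels.

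Most of the 15 strongest inductions started from levels near 0 in KO-PBS. These genes and the 15 largest decreases were chosen among genes whose groups did not overlap. Lcn2, which sequesters bacterial iron carriers, had no count in any KO-PBS library and stood at 6.55, 5.57 and 47.9 CPM, at least 571-fold higher against a floor of 3 counts over the group. Ptges, the inducible prostaglandin E synthase, was also without a count in KO-PBS and at 6.42, 3.84 and 39.6 CPM (at least 477-fold higher). Nos2, the inducible nitric oxide synthase, went from 0 to 3.93, 2.37 and 27.1 CPM (at least 320-fold higher). In all of them KO_LPS_600 was far above the other two KO-LPS libraries, and without it the lower bounds were 173-fold, 151-fold and 92.6-fold. That library also held the neutrophil genes Ngp, S100a9, S100a8, Camp and Retnlg at 12.8, 4.69, 4.14, 1.65 and 0.916 CPM, against at most 0.183 CPM in the other KO libraries, and their part in these results was not tested. The fitted changes of Lcn2, Ptges and Nos2 passed the edgeR test (adjusted p 0.00265, adjusted p 2.31e-04 and adjusted p 0.00171, in that order). Hcn4, a cation channel best known from pacemaker cells of the heart, was likewise at 0 in KO-PBS but owed most of its level to KO_LPS_600 (1.57, 1.28 and 41.9 CPM), and its bound fell from 426-fold to 40.7-fold without that library.

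Saa3, an acute-phase serum amyloid, had 2 counts over the KO-PBS libraries and 4622 over the KO-LPS libraries, a ratio of 2425 (95% exact interval 671 to 20028, counting error only), and of 1124 without KO_LPS_600. The metallothionein gene Mt2 was at 0.187, 0.726 and 0.362 CPM in KO-PBS and 201, 134 and 417 CPM in KO-LPS, a log2 fold change of 9.32 ± 0.98 (SE), adjusted p 2.14e-05 by edgeR. Ptgs2, which encodes cyclooxygenase 2, was at 0.374, 0.519 and 0.423 CPM in KO-PBS and 91.4, 90.7 and 341 CPM in KO-LPS (8.65 ± 0.99 SE, adjusted p 4.03e-05). All of these genes were barely detected in KO-PBS. Il12b, the shared subunit of IL-12 and IL-23, was at 1.37, 1.04 and 0.997 CPM in KO-PBS and 146, 129.9 and 741 CPM in KO-LPS (8.21 ± 0.82 SE, adjusted p 1.46e-05). Sphk1, which makes sphingosine 1-phosphate, had 7 counts over KO-PBS and 3032 over KO-LPS, a ratio of 454 (exact interval 220 to 1131). Trem1, an activating receptor of myeloid cells, was at 0.0312, 0.571 and 0 CPM in KO-PBS and 40.8, 37.8 and 20.3 CPM in KO-LPS (7.74 ± 0.75 SE), and was the one of these genes in which KO_LPS_600 was the lowest of the 3. Rnd1, a small GTPase, Tnfsf9, the ligand of 4-1BB, and Adora2a, an adenosine receptor, reached log2 fold changes of 8.31, 7.49 and 7.71. Of the 15 strongest inductions 12 had a fold that moved by more than 1.5 times without KO_LPS_600, and all 15 passed the test without it, at log2 fold changes between 5.77 and 10.44. Where a single KO-PBS library held most of the few counts the fold moved as well: Saa3 and Adora2a reached 13.64 and 11.54 without KO_PBS_638, and Trem1, Cxcl1 and Cxcl2 reached 10.72, 11.29 and 9.28 without KO_PBS_641.

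Among the raised genes with the highest CPM were the pattern recognition and adhesion genes of activated microglia. Cd14, the LPS co-receptor, was at 327, 315 and 279 CPM in KO-PBS and 3306, 2705 and 5276 CPM in KO-LPS (3.61 ± 0.27 SE, adjusted p 1.66e-06 by edgeR). Tlr2, a receptor for bacterial lipoproteins, was at 437, 454 and 432 CPM in KO-PBS and 4764, 4281 and 5184 CPM in KO-LPS (3.43 ± 0.26 SE), and Icam1, a ligand of leukocyte integrins, at 269.8, 246 and 262 CPM in KO-PBS and 4109, 3362 and 5030.2 CPM in KO-LPS (4.01 ± 0.22 SE). These genes were also chosen among genes whose groups did not overlap. The gap between their KO-LPS and KO-PBS libraries was thus set by that choice. Gpr84, a receptor of medium-chain fatty acids, Cd83, Socs3 and Il4ra rose by 3.91, 3.81, 5.71 and 2.78 on the log2 scale. Smaller rises came from the ferritin heavy chain gene Fth1 (1.43), the clathrin adaptor gene Picalm (1.58) and the MHC class I gene H2-K1 (1.04). No fold of these 10 genes moved by more than 1.5 times without KO_LPS_600.

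**Figure D2:**
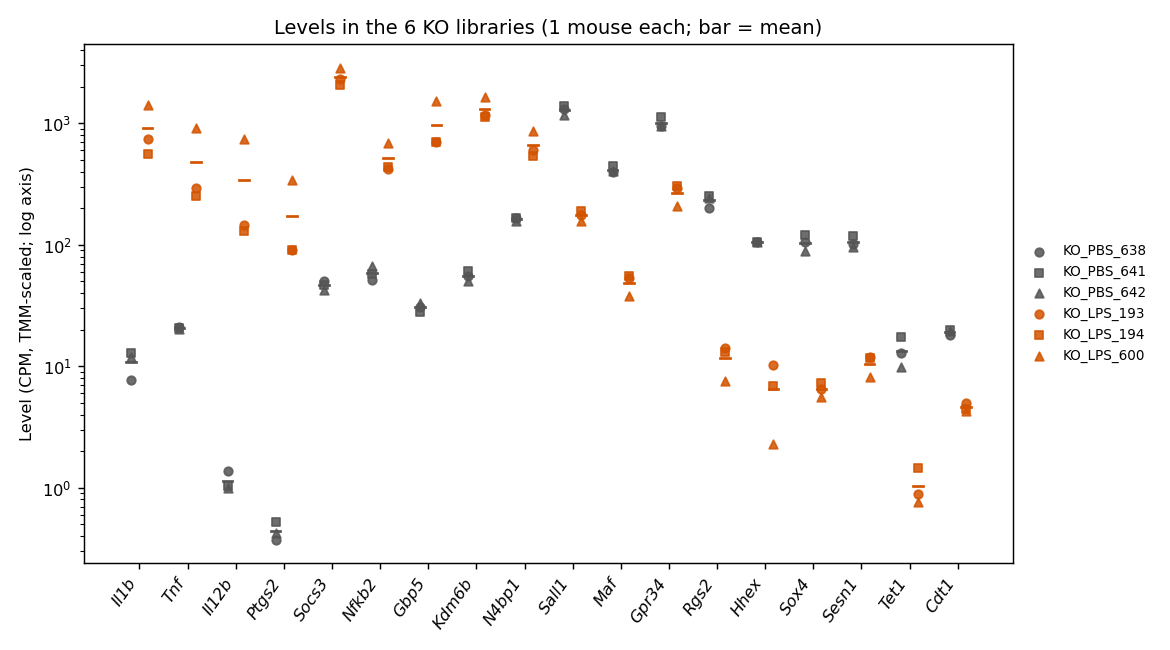
Level in CPM (log axis) of 18 named genes in the 6 KO libraries, grey for KO-PBS and orange for KO-LPS, with 1 symbol per animal and a bar at the mean. The groups do not overlap for any gene shown, which for some of these genes was a condition of their choice. KO_LPS_600 (orange triangle) is the highest for Il1b, Tnf and Il12b and the lowest of the KO-LPS libraries for Sall1, Maf, Gpr34, Rgs2 and Hhex.

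The 15 largest decreases came in genes of several kinds. Rgs2, which switches off G alpha proteins, was at 199.8, 253 and 244 CPM in KO-PBS and 14.1, 13.1 and 7.55 CPM in KO-LPS, a log2 fold change of -4.32 ± 0.32 (SE), adjusted p 1.62e-06 by edgeR. Hhex, a homeobox transcription factor, was at 105, 106 and 107 CPM in KO-PBS and 10.3, 6.94 and 2.31 CPM in KO-LPS (-4.02 ± 0.41 SE, adjusted p 1.56e-05). Sox4, an HMG-box transcription factor, was at 105, 120.5 and 88.2 CPM in KO-PBS and 6.45, 7.26 and 5.61 CPM in KO-LPS (-4.02 ± 0.23 SE, adjusted p 2.89e-07). The 3 KO-LPS libraries were close to each other for Sox4 and further apart for Hhex. Cbfa2t3, a transcriptional corepressor of the ETO family, was at 42.9, 50.7 and 39.7 CPM in KO-PBS and 2.56, 1.69 and 1.21 CPM in KO-LPS and showed the largest fall of the named genes (-4.59 ± 0.25 SE, adjusted p 2.28e-07). Lpar5, a receptor for lysophosphatidic acid, was at 38.4, 49.0 and 46.4 CPM in KO-PBS and 2.78, 2.51 and 1.87 CPM in KO-LPS (-4.22 ± 0.20 SE, adjusted p 9.34e-08). Tet1, which oxidises methylated cytosine, was at 12.97, 17.3 and 9.91 CPM in KO-PBS and 0.895, 1.46 and 0.770 CPM in KO-LPS (-3.70 ± 0.37 SE, adjusted p 1.41e-05). The list of the 15 strongest decreases went on with Ypel2 (-4.39), Tcim (-4.33), the E3 ubiquitin ligase gene Rnf144b (-4.27), the metalloprotease gene Adamts16 (-4.23), Dnajc28 (-3.91), the adaptor gene Sh2d3c (-3.89), Rgs14 (-3.70), the RNA-binding protein gene Mex3b (-3.63) and the polysialyltransferase gene St8sia4 (-3.61). Without KO_LPS_600 all 15 passed the test and none moved by more than 1.5 times.

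Promoters of 5 of these genes are given as examples of what the windows hold, 3 raised and 2 lowered, chosen as the highest in fold change whose window starts within 100 bases of the gene start and holds a searched motif. They come from RefSeq on GRCm38.p6 and run 5′ to 3′ from 250 bases before to 50 bases after the start of transcription. The motif strings, searched on both strands, were GGANNTTCC (NF-kB), GAAANNGAA (ISRE, the interferon-stimulated response element), TGANTCA (AP-1), TGACGTCA (CRE) and CCAAT (NF-Y), and capitals mark the match. In Saa3 (chr7:46715627-46715926, minus strand) the capitals mark an ISRE string, in Mt2 (chr8:94172368-94172667, plus strand) an AP-1 string and in Cxcl1 (chr5:90890995-90891294, plus strand) an NF-kB string. In Ypel2 (chr11:86993713-86994012, minus strand) and Rgs2 (chr1:144004100-144004399, minus strand) they mark the NF-Y string, in Ypel2 on the opposite strand.
Saa3: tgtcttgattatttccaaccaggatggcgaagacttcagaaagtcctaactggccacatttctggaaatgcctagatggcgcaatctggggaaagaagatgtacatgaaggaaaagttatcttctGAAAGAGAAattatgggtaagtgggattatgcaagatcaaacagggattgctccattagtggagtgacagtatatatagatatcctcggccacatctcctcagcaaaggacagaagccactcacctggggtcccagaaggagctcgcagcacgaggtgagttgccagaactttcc
Mt2: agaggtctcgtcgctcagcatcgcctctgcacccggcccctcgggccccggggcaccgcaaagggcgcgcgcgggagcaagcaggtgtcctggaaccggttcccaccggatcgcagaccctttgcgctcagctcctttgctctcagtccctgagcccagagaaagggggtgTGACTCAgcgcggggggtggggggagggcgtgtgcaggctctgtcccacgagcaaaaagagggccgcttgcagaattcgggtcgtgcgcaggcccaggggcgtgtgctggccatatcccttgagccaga
Cxcl1: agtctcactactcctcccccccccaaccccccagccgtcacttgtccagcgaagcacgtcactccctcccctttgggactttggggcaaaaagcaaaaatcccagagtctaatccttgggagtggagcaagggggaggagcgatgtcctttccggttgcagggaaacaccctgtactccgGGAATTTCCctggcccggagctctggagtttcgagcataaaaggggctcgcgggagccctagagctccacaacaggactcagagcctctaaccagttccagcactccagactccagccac
Ypel2: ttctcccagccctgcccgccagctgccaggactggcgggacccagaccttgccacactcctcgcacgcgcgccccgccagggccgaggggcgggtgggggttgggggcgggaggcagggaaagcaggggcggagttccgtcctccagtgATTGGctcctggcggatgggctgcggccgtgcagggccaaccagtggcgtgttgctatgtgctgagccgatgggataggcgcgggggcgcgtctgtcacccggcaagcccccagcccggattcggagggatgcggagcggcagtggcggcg
Rgs2: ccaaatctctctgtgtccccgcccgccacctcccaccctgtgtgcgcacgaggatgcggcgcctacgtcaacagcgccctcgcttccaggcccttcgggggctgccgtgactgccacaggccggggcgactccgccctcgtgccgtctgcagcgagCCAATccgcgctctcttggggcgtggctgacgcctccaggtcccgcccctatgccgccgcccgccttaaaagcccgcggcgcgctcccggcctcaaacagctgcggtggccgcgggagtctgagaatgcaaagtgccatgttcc
The match began 125 bases before the start in Saa3, 79 in Mt2, 70 in Cxcl1, 101 in Ypel2 and 94 in Rgs2. A match to such a short string is a description of the letters and not of a bound site.

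Across the promoters that could be matched, the strings were spread unevenly between the raised and lowered genes. Of 10793 genes tested that had a promoter window, 774 were called higher and 936 were called lower. No limit on distance was set here: the start of the window lay within 100 bp of the gene start for 8134 of them and further away for the others. The NF-kB string was in 7.24% of the raised, 4.59% of the lowered and 4.55% of all these promoters, and the ISRE string in 11.9%, 5.88% and 7.60%. AP-1 strings were in 6.98%, 3.74% and 4.73%, and CRE strings in 5.30%, 2.03% and 3.23%. The NF-Y string ran the other way, at 35.4%, 42.5% and 38.9%. Over all 32851 promoters of the table, whether expressed or not, the shares were 4.26% for NF-kB, 8.56% for ISRE, 7.81% for AP-1, 1.79% for CRE and 37.4% for NF-Y.

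NF-kB genes and their inhibitors mostly rose. All 5 NF-kB subunit genes rose (median log2 fold change 1.62, beside -0.0037 over all genes tested), and 9 of 11 genes of NF-kB feedback inhibitors rose and none fell (median 2.89). Nfkb2 was at 50.9, 57.9 and 66.8 CPM in KO-PBS and 421, 438 and 691 CPM in KO-LPS (3.14 ± 0.29 SE, adjusted p 8.39e-06 by edgeR), and Rela rose less (1.46). Tnfaip3, which encodes the deubiquitinase A20, was at 105, 96.9 and 89.3 CPM in KO-PBS and 1387, 1171 and 3146 CPM in KO-LPS (4.29 ± 0.40 SE). In both genes KO-LPS lay above KO-PBS in every library. Among 17 genes of the LPS receptor and its signalling 8 rose and 4 fell, with Cd14, Myd88 (2.06) and the kinase gene Map3k8 (3.61) on the raised side. The count of those that fell was 2 without KO_PBS_638, KO_PBS_641 or KO_LPS_194.

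Most genes of secreted signals rose. Of 18 cytokine genes of macrophages 14 rose and none fell (median 3.90), of 12 CC chemokine genes 9 rose (median 3.11) and of 8 CXC chemokine genes 6 rose (median 3.08), with none lower in either. Il1b, the main pro-inflammatory interleukin 1, was at 7.77, 12.97 and 12.0 CPM in KO-PBS and 747, 562 and 1425 CPM in KO-LPS, a log2 fold change of 6.39 ± 0.74 (SE), adjusted p 4.37e-05 by edgeR. Tnf was at 21.2, 20.6 and 20.3 CPM in KO-PBS and 292, 254 and 909 CPM in KO-LPS (4.55 ± 0.67 SE, adjusted p 2.48e-04), and was 3.72 without KO_LPS_600. Il6 was at 8.39, 5.81 and 3.17 CPM in KO-PBS and 29.1, 27.9 and 41.3 CPM in KO-LPS (2.50 ± 0.38 SE, adjusted p 3.18e-04). All of these were higher in each KO-LPS library than in any KO-PBS library. Cxcl10, an attractant of T cells that interferons induce, was at 43.3, 49.5 and 53.6 CPM in KO-PBS and 1525, 1418 and 2370.3 CPM in KO-LPS (5.18 ± 0.37 SE), and Ccl12 at 126, 91.1 and 120.0 CPM in KO-PBS and 1642, 1486 and 1609 CPM in KO-LPS (3.81 ± 0.20 SE). Cxcl1, an attractant of neutrophils, had 2 counts over KO-PBS and 866 over KO-LPS, a ratio of 454 (exact interval 125 to 3757) that was 209 without KO_LPS_600. Csf3, the granulocyte growth factor gene, went from 0 to 0.831, 1.19 and 4.802 CPM, at least 64.0-fold higher and at least 27.5-fold without KO_LPS_600. Ccl3 was at 65.8, 101.0 and 79.9 CPM in KO-PBS and 346, 286 and 1541 CPM in KO-LPS (3.14 ± 0.95 SE, adjusted p 0.0212), and it no longer passed the test without KO_LPS_600 (log2 fold change 1.95, adjusted p 0.113) and without any one of the 3 KO-PBS libraries, at adjusted p 0.0555 to 0.0730. Without KO_LPS_600 or Control_PBS_175, 1 cytokine gene passed as lower.

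Lists that include genes restraining the response leaned upwards as well, and the SOCS and JAK-STAT list also holds STAT factors, which carry signals. Of 18 SOCS and JAK-STAT genes 14 rose (median 1.01), of 12 factors of inflammatory mRNA decay 9 rose and 1 fell (median 1.66), and of 10 dual-specificity phosphatases 5 rose and 1 fell (median 1.30). Socs3 was at 50.4, 46.7 and 42.4 CPM in KO-PBS and 2337, 2078 and 2883 CPM in KO-LPS (5.71 ± 0.23 SE, adjusted p 4.30e-08 by edgeR). Cish, another inhibitor of cytokine receptor signalling, was at 2.78, 2.44 and 2.75 CPM in KO-PBS and 159, 117 and 162 CPM in KO-LPS (5.78 ± 0.47 SE), and Dusp1, a MAP kinase phosphatase that glucocorticoids also induce, at 4.803, 4.88 and 4.56 CPM in KO-PBS and 474, 378 and 888 CPM in KO-LPS (6.93 ± 1.12 SE). Every KO-LPS library was far above KO-PBS in these 3 genes. Zfp36, which destabilises cytokine mRNAs, rose by 2.87, Arid5a, which stabilises some of them, by 3.40, and Zc3h12a, an RNase, by 2.78. Immediate early factors were 16 higher and 1 lower of 23 (median 1.75), with Fosl2 at 20.5, 25.5 and 21.4 CPM in KO-PBS and 642.1, 600.01 and 776 CPM in KO-LPS (4.91 ± 0.52 SE). The lower member was lost without KO_PBS_641, KO_PBS_642, KO_LPS_194 or KO_LPS_600 or any WT-LPS library. Of 16 glucocorticoid targets 10 rose and 1 fell (median 1.94), and 2 fell without Control_PBS_175. Zbtb16 of that list was at 0, 0.830 and 0.0604 CPM in KO-PBS and 35.6, 43.4 and 26.7 CPM in KO-LPS (7.26 ± 2.02 SE, adjusted p 0.0139), with adjusted p of 0.0559 without KO_PBS_638 and 0.0587 without KO_PBS_642.

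The interferon side of the response showed many moderate rises. Of 34 interferon-stimulated genes 20 rose and none fell, with a median of 0.83, and 31 rose with limma and surrogate variables. Ifit1, an antiviral RNA-binding protein, was at 17.0, 19.7 and 25.01 CPM in KO-PBS and 70.2, 89.1 and 207 CPM in KO-LPS (2.57 ± 0.44 SE, adjusted p 6.70e-04 by edgeR), with a log2 fold change of 1.95 without KO_LPS_600. Rsad2, the antiviral enzyme viperin, was at 28.4, 36.6 and 33.0 CPM in KO-PBS and 87.6, 112 and 205 CPM in KO-LPS (2.04 ± 0.45 SE, adjusted p 0.00381). The 3 levels of KO-LPS differed by more than those of KO-PBS, with KO_LPS_600 on top. The guanylate-binding proteins and related GTPases were raised in 11 of 17 (median 1.28), led by Gbp5 at 30.6, 28.1 and 33.2 CPM in KO-PBS and 703, 698 and 1528 CPM in KO-LPS (4.99 ± 0.39 SE). Of 9 interferon regulatory factors 4 rose and none fell, against 2 and 3 under scaling by total counts, with Irf1 at 2.18 and Irf7 at 0.78 on the log2 scale. Irf7 lost the test without KO_PBS_638 (adjusted p 0.0538), KO_PBS_641 (0.0781) or KO_LPS_600 (0.0777).

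Genes of antigen presentation and costimulation rose in part. Of 15 costimulatory receptors and ligands 13 rose (median 2.95), of 18 genes of MHC class I and the immunoproteasome 11 rose and 1 fell (median 0.43), and of 12 class II genes 3 rose and none fell (median 0.33). The raised shares were 86.7%, 61.1% and 25%, beside 17.7% of all genes tested, so that of class II was not far from the background. Under scaling by total counts 7 class I genes rose and 3 class II genes fell. The class I gene that fell was lost without KO_PBS_641, KO_PBS_642, KO_LPS_194 or KO_LPS_600, and the class II genes were 5 higher and 2 lower without Control_PBS_175 and had 1 lower without KO_LPS_193. Cd40, which receives signals from T cells, was at 4.803, 4.15 and 5.799 CPM in KO-PBS and 122, 106 and 280.3 CPM in KO-LPS (5.095 ± 0.73 SE, adjusted p 2.03e-04 by edgeR), and Fas, a death receptor, at 0.998, 1.30 and 1.60 CPM in KO-PBS and 38.8, 37.9 and 89.0 CPM in KO-LPS (5.40 ± 0.67 SE). Cd74, the invariant chain of class II molecules, was at 264, 241 and 295 CPM in KO-PBS and 604, 474 and 731 CPM in KO-LPS (1.18 ± 0.19 SE). In all of these genes each KO-LPS library was above every KO-PBS library. H2-Ab1 (0.61) lost the test without KO_PBS_638, KO_LPS_193 or KO_LPS_600. The class I genes H2-Q4, H2-Q6 and H2-Q7 share much of their sequence, so their separate rises of 1.51, 1.88 and 1.73 are uncertain.

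Growth and survival genes were on the raised side. Of 28 ribosome biogenesis genes 20 rose and none fell (median 0.66), although 12 rose under scaling by total counts. Nop58, a core protein of small nucleolar particles, was at 24.0, 22.3 and 31.6 CPM in KO-PBS and 72.6, 79.7 and 82.3 CPM in KO-LPS (1.59 ± 0.15 SE, adjusted p 1.05e-05 by edgeR). Of 25 genes of cell survival and death 14 rose and 4 fell (2 without KO_LPS_194), and those that rose included Birc3, which blocks caspase activation (3.07), and Casp4, the sensor of cytosolic LPS (2.94). In metabolism, Acod1, which makes itaconate, was at 2.53, 4.41 and 3.20 CPM in KO-PBS and 116, 93.2 and 602 CPM in KO-LPS (6.34 ± 0.75 SE), and 4.97 without KO_LPS_600. Slc2a1, the main glucose transporter gene, was at 95.9, 105 and 109.7 CPM in KO-PBS and 842, 768 and 755 CPM in KO-LPS (2.93 ± 0.15 SE). The zinc importer gene Slc39a14 was at 44.0, 45.0 and 47.7 CPM in KO-PBS and 589, 645 and 847 CPM in KO-LPS (3.93 ± 0.20 SE). Of 14 genes of metallothioneins, zinc and iron 9 rose and 1 fell (median 1.33).

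Most transcription factors of microglial identity fell. Of 18 microglial lineage transcription factors 11 fell and 3 rose (median -0.64), so 61.1% fell, beside 19.3% of all genes tested, and 1 rose with KO_LPS_600 set alone against KO-PBS. Sall1, which maintains microglial identity, was at 1326, 1384 and 1169 CPM in KO-PBS and 176, 189.7 and 158 CPM in KO-LPS (-2.89 ± 0.34 SE, adjusted p 4.66e-05 by edgeR). Maf was at 402, 442 and 408 CPM in KO-PBS and 53.01, 55.1 and 38.1 CPM in KO-LPS (-3.10 ± 0.23 SE, adjusted p 1.81e-06), and Fli1, an ETS factor, at 175.01, 186 and 162 CPM in KO-PBS and 49.9, 51.1 and 36.8 CPM in KO-LPS (-1.92 ± 0.13 SE, adjusted p 9.49e-07). The lowest KO-PBS library lay well above the highest KO-LPS library for all of them. Runx1 was on the other side, at 168, 179 and 152 CPM in KO-PBS and 1109, 1158 and 1259.5 CPM in KO-LPS (2.82 ± 0.32 SE). Since the libraries are bulk samples, fewer cells of a type and less RNA per cell cannot be told apart.

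The surface genes of homeostatic microglia fell less uniformly. Of 28 such genes 8 fell, 2 rose and 18 did not pass (median -0.29), so 28.6% fell. Gpr34, a receptor for lysophosphatidylserine, was at 961, 1129 and 948 CPM in KO-PBS and 293, 305 and 208 CPM in KO-LPS (-1.92 ± 0.30 SE, adjusted p 4.14e-04 by edgeR). P2ry12, the ADP receptor that guides microglial processes, was at 3644, 3928 and 3412 CPM in KO-PBS and 1663, 1657 and 1066 CPM in KO-LPS (-1.32 ± 0.39 SE, adjusted p 0.0192). Cx3cr1, the fractalkine receptor, was at 7498, 7541 and 6664 CPM in KO-PBS and 3876, 3816 and 2985 CPM in KO-LPS (-1.02 ± 0.34 SE, adjusted p 0.0336). No level overlapped between groups in these genes. P2ry12 nevertheless lost the test without KO_PBS_641 (adjusted p 0.0520) or KO_LPS_600 (0.0724), and Cx3cr1 lost it without any one of the 6 KO libraries (0.0589 to 0.104). Without KO_PBS_641 or without KO_LPS_600 the count that fell was 5, and 1 rose without KO_PBS_638, KO_PBS_642, KO_LPS_193, KO_LPS_194 or KO_LPS_600. P2ry6, a receptor for UDP that triggers phagocytosis, was one of those that rose, at 491, 426 and 383 CPM in KO-PBS and 868, 873 and 850.4 CPM in KO-LPS (1.00 ± 0.11 SE). By CPM the most abundant lowered genes also included the lysosomal nucleoside transporter gene Slc29a3 (-1.54), Cd180, a relative of TLR4 (-1.74), Bin1 (-1.496), the splicing factor gene Mbnl1 (-1.03), Ivns1abp (-1.41), Arhgap5 (-2.11) and the integrin gene Itga6 (-1.08).

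Genes of zinc finger proteins leaned towards lower levels. Of 366 genes with a Zfp name 159 fell and 30 rose, that is 43.4% lower beside 19.3% of all genes, with a median of -0.50. Among the 159 that fell 72 were called lower, beside 1284 called lower of the 3370 that fell among all genes tested. The 72 are out of 366 Zfp genes, and the 1284 are 7.35% of all 17460. In sign, 282 of the 366 lay below 0, beside 8763 of all 17460. Zfp467 was at 73.4, 83.7 and 87.6 CPM in KO-PBS and 11.3, 10.9 and 7.29 CPM in KO-LPS (-3.05 ± 0.33 SE, adjusted p 2.44e-05 by edgeR) and Zfp395 at 39.8, 42.2 and 37.5 CPM in KO-PBS and 5.85, 5.30 and 2.97 CPM in KO-LPS (-3.08 ± 0.28 SE, adjusted p 7.64e-06). Both fell in all 3 KO-LPS libraries below every KO-PBS library. Many Zfp genes encode KRAB zinc finger repressors, which are near copies of one another in part, and reads shared between them could be split by the counting. The number raised was 16 under scaling by total counts.

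Enzymes of histone and DNA marks also leaned downwards. Of 38 histone and DNA mark enzymes 15 fell and 7 rose (39.5% lower, median -0.19), and 9 fell without KO_LPS_193, while 4 rose without KO_PBS_638. Kdm2b, a demethylase that brings Polycomb to CpG islands, was at 86.6, 90.8 and 86.3 CPM in KO-PBS and 30.0, 34.6 and 19.2 CPM in KO-LPS (-1.66 ± 0.22 SE). Kdm6b, the demethylase of H3K27me3, moved the opposite way, at 55.5, 60.8 and 50.5 CPM in KO-PBS and 1176, 1126 and 1647 CPM in KO-LPS (4.56 ± 0.26 SE, adjusted p 2.61e-07). Tet2 rose (1.53) where Tet1 fell (-3.70).

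The lowered shares of cell cycle genes were not far from the 19.3% of all genes. Of 32 mitosis genes 8 fell and none rose (25% lower, median -0.72), and 4 fell without KO_PBS_641, KO_PBS_642 or KO_LPS_600, against 14 under scaling by total counts. Of 31 DNA replication genes 7 fell and none rose (22.6%, median -0.48), and 11 fell under scaling by total counts. Cdt1, which licenses replication origins, was at 17.9, 19.8 and 19.6 CPM in KO-PBS and 4.98, 4.47 and 4.29 CPM in KO-LPS (-2.06 ± 0.21 SE, adjusted p 1.73e-05 by edgeR). The replicative helicase gene Mcm7 was at 17.5, 24.2 and 30.6 CPM in KO-PBS and 11.3, 8.86 and 12.46 CPM in KO-LPS (-1.15 ± 0.24 SE, adjusted p 0.00296). The spindle kinase gene Ttk was at 2.78, 3.89 and 2.81 CPM in KO-PBS and 1.41, 0.502 and 0.550 CPM in KO-LPS (-1.92 ± 0.50 SE, adjusted p 0.00994), with a log2 fold change of -2.57 without KO_LPS_193. In these genes the highest KO-LPS library stayed below the lowest KO-PBS library.

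Of 24 genes of nucleotide excision and crosslink repair, the pathway of ERCC1, 5 fell and 2 rose (median -0.23), a share of 20.8% lower that is near that of all genes. The number that fell was 1 to 3 without any one of KO_PBS_638, KO_PBS_642, KO_LPS_193, KO_LPS_194 and KO_LPS_600, and the number that rose was 0 without KO_PBS_642 and 1 without KO_LPS_193, KO_LPS_194 or KO_LPS_600. Under scaling by total counts none rose and 8 fell. Ercc5, the nuclease that cuts on the other side of the lesion, was at 35.2, 34.3 and 26.5 CPM in KO-PBS and 13.5, 16.3 and 12.9 CPM in KO-LPS (-1.17 ± 0.17 SE, adjusted p 2.06e-04 by edgeR). Xpa, which verifies the damage, was at 5.86, 6.28 and 4.23 CPM in KO-PBS and 3.26, 2.65 and 1.94 CPM in KO-LPS (-1.05 ± 0.38 SE, adjusted p 0.0465), and lost the test without any one of the 6 KO libraries (0.0514 to 0.149) and without Control_PBS_170 or Control_PBS_171 or Control_LPS_185 (0.0516 to 0.0608). Ercc8, of the transcription-coupled branch, rose, at 6.49, 6.02 and 5.50 CPM in KO-PBS and 9.04, 11.4 and 12.4 CPM in KO-LPS (0.87 ± 0.24 SE, adjusted p 0.0142), and lost the test without KO_PBS_642 (0.0540) or KO_LPS_600 (0.0511). Xpa and Ercc8 were at low levels in all 6 libraries. The targets of p53 moved in both directions, with 7 of 19 higher and 4 lower (median 0.07). These shares were 36.8% and 21.1%, beside 17.7% and 19.3% of all genes tested, so the lowered share was near the background. Cdkn1a, the cyclin kinase inhibitor p21, was at 46.7, 77.2 and 81.8 CPM in KO-PBS and 280.4, 264 and 262 CPM in KO-LPS (1.97 ± 0.20 SE), whereas Sesn1, an inhibitor of mTORC1, was at 103, 118 and 96.5 CPM in KO-PBS and 11.9, 11.6 and 8.14 CPM in KO-LPS (-3.32 ± 0.20 SE) and Trp53inp1 fell by 2.15 on the log2 scale. Clock genes also moved in both directions, with 4 of 16 higher and 5 lower (25% and 31.25%, beside 17.7% and 19.3% of all genes tested). The output factors Dbp (-2.48) and Tef (-1.27) fell, and Per1 (2.32) and Nfil3 (4.20) rose.

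Genes tied to disease-associated microglia gave a mixed picture. Of 26 genes of disease-associated microglia 6 rose and none fell (median 0.25), so 23.1% rose, not far from the 17.7% of all genes tested. That count ranged from 3 without KO_PBS_638, KO_PBS_641 or KO_LPS_193 to 11 without Control_PBS_175, and 1 gene passed as lower without KO_PBS_638 or Control_PBS_175. Under scaling by total counts 2 rose and 3 fell, and with KO_LPS_600 set alone 2 rose. Spp1, osteopontin, was at 88.3, 226 and 157 CPM in KO-PBS and 852, 840.1 and 431 CPM in KO-LPS (2.17 ± 0.35 SE, adjusted p 4.97e-04 by edgeR). Clec7a, a beta-glucan receptor, was at 118, 176 and 148 CPM in KO-PBS and 111, 95.3 and 88.6 CPM in KO-LPS (-0.59 ± 0.28 SE, adjusted p 0.121), and Axl, a receptor for dying cells, at 781, 825 and 746 CPM in KO-PBS and 976, 753 and 784 CPM in KO-LPS (0.10 ± 0.20 SE, adjusted p 0.739), with neither passing the test.

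**Figure D3:**
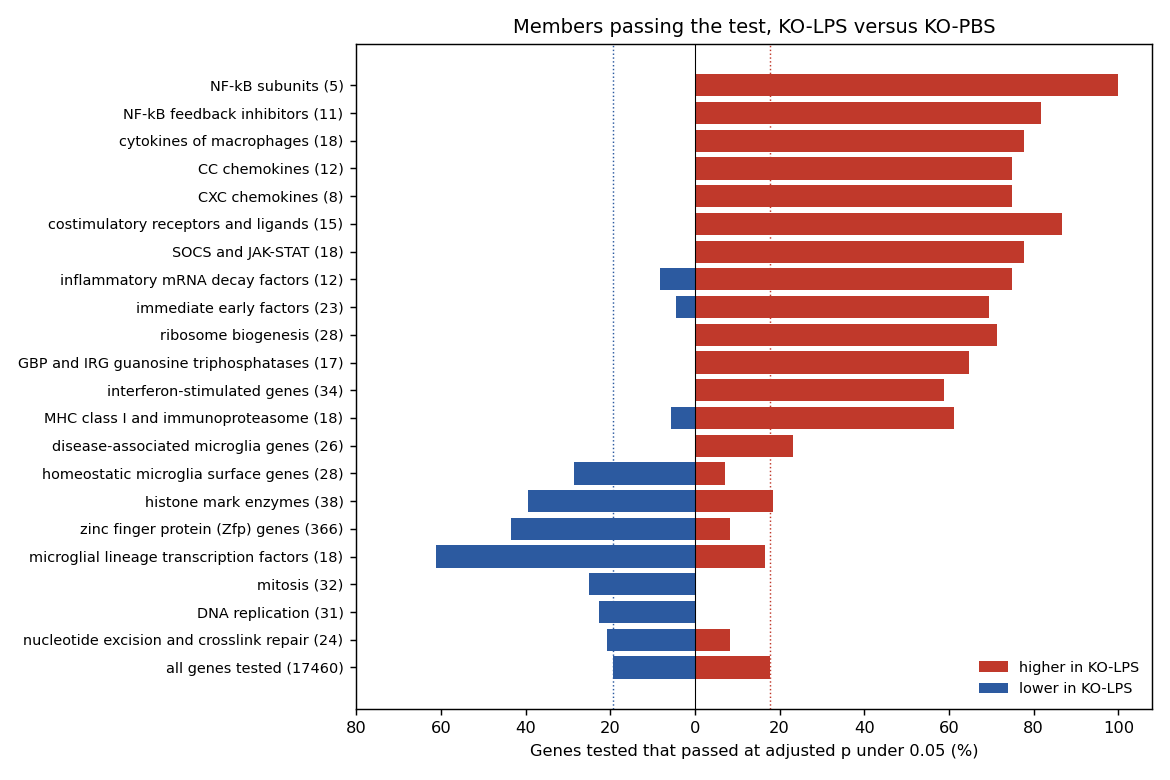
Percent of tested members of 21 gene lists that passed at an adjusted p under 0.05, higher in KO-LPS to the right and lower to the left, with the number tested in brackets and dotted lines at 17.7% and 19.3% for all genes. The signalling, cytokine and chemokine lists extend to the right, and the lineage factors (61.1%), Zfp genes (43.4%) and histone mark enzymes (39.5%) extend furthest to the left.

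The response of the KO mice was set beside that of the WT littermates, which shares no library with it. In WT-LPS versus WT-PBS 702 genes were called higher (4.02%) and 255 lower (1.46%), and 1861 passed as higher (10.7%) and 1598 as lower (9.15%). Of the 1136 genes called higher in KO, 514 (45.2%) were called higher in WT and 764 (67.3%) passed as higher in WT. These 514 are 73.2% of the WT calls. Of the 1284 genes called lower in KO, 186 (14.5%) were called lower in WT and 555 (43.2%) passed as lower, and the 186 are 72.9% of the WT calls. The median log2 fold change in WT was 1.53 over the raised and -0.59 over the lowered KO genes. A gene chosen for a large change in KO will tend to show a smaller one in WT, so these medians are no measure of the difference.

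The difference itself was tested as the interaction of genotype and LPS. It was called for 27 genes whose log2 response was higher in KO than in WT (0.155% of those tested) and for 98 whose response was lower (0.561%), and it passed below 0.05 for 270 (1.55%) and 538 (3.08%). Of the 98, 78 were genes called lower in KO and 9 were genes called higher, and of the 27, 16 were called higher in KO and none was called lower. These counts rest on few libraries. Without Control_LPS_184 they were 0 and 1, without KO_PBS_638 0 and 24, without KO_PBS_641 2 and 23, without KO_PBS_642 2 and 22, and without Control_LPS_185 1 and 14. Without Control_PBS_171 they were 12 and 32, without KO_LPS_193 16 and 68, and without KO_LPS_194 16 and 48. Without Control_PBS_175, the library that stood apart, they were 64 and 207. Of the 28 named genes that passed, 23 did so in all 21 alternatives. The named genes include the largest called interactions of each direction, chosen from this same test. Their passing was thus favoured by that choice and is no separate measure of how stable the interaction counts are.

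The response was smaller in KO for a pair of immediate early factors. Egr1 was at 36.5, 64.2 and 50.6 CPM in KO-PBS and 330.3, 279 and 182 CPM in KO-LPS (log2 fold change 2.39 ± 0.51 SE), whereas in WT it went from 9.62, 6.45 and 36.4 CPM to 2688, 2665 and 2633 CPM, and the interaction was -4.85 ± 0.72, adjusted p 0.00486 by edgeR. Egr2 was at 10.1, 20.6 and 9.57 CPM in KO-PBS and 39.3, 30.4 and 22.3 CPM in KO-LPS (1.20 ± 0.41 SE), against 3.28, 0.881 and 4.53 CPM to 136, 133 and 140.0 CPM in WT (interaction -4.33 ± 0.61, adjusted p 0.00394). In both genes the KO-LPS libraries lay below all WT-LPS libraries. The KO change of Egr2 lost the test without KO_PBS_638, KO_PBS_642, KO_LPS_193 or KO_LPS_194 or any WT-LPS library (0.0521 to 0.132). Spp1 reached 852, 840.1 and 431 CPM in KO-LPS from 88.3, 226 and 157 CPM in KO-PBS, and in WT it went from 3.21, 2.57 and 3.70 CPM to 169.99, 97.7 and 100.5 CPM (interaction -3.10 ± 0.51, adjusted p 0.00799).

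Other genes passed as lower in KO and did not pass in WT. Spry1, an inhibitor of receptor tyrosine kinase signalling, was at 15.8, 14.3 and 11.5 CPM in KO-PBS and 1.79, 2.10 and 0.916 CPM in KO-LPS and went from 14.97, 15.5 and 23.5 CPM to 20.5, 27.4 and 29.2 CPM in WT (interaction -3.63 ± 0.39, adjusted p 0.00222 by edgeR). Mex3b was at 24.0, 26.1 and 19.0 CPM in KO-PBS and 2.14, 2.69 and 0.770 CPM in KO-LPS and went from 31.3, 33.2 and 28.4 CPM to 19.0, 34.8 and 32.3 CPM in WT (interaction -3.53 ± 0.46, adjusted p 0.00341). The WT groups overlapped for both genes, and the KO groups did not. Tet1 had an interaction of -3.29 ± 0.47 and did not pass in WT. Rnf144b, with an interaction of -3.32 ± 0.39, passed as lower in WT as well. Epha2, an ephrin receptor gene, did not pass in KO (-0.39 ± 0.34 SE, adjusted p 0.388) and rose in WT (2.73), with an interaction of -3.12 ± 0.48. Cbfa2t3, Lpar5, Sox4, Ypel2, Rgs2 and Sh2d3c passed as lower in both genotypes and fell further in KO, with interactions between -2.73 and -1.88.

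The response was higher in KO for another set. Pstpip2, an F-BAR protein that restrains macrophage inflammation, was at 5.30, 5.40 and 3.81 CPM in KO-PBS and 46.2, 43.4 and 74.4 CPM in KO-LPS and went from 6.09, 6.27 and 12.1 CPM to 14.9, 6.47 and 8.44 CPM in WT (interaction 3.23 ± 0.50, adjusted p 0.00605 by edgeR). N4bp1, an RNase that curbs NF-kB signalling, was at 166, 166 and 156 CPM in KO-PBS and 598, 541 and 864 CPM in KO-LPS and went from 178, 181 and 149.5 CPM to 230.1, 164 and 148.7 CPM in WT (interaction 1.94 ± 0.27, adjusted p 0.00394). Each KO-LPS library was above all KO-PBS libraries, and the WT groups overlapped for both genes. Zhx2, Nfil3, Slc39a14 and Hivep1, a zinc finger factor that binds NF-kB sites, had interactions of 3.21 ± 0.52, 2.08 ± 0.31, 1.82 ± 0.26 and 1.81 ± 0.31. The heat shock gene Hsph1 and the copper transporter gene Slc31a2 rose in KO (0.60 and 0.97) and fell in WT (-1.49 and -0.90), and the KO change of Hsph1 lost the test without KO_PBS_638, KO_PBS_641 or KO_LPS_194 (0.118 to 0.122). Of the receptor genes, Cd14 (1.97 ± 0.35, adjusted p 0.0107) and Tlr2 (1.52 ± 0.33, adjusted p 0.0252) had a larger rise in KO, and Tlr2 lost that test without KO_PBS_638, KO_PBS_641, KO_PBS_642, Control_LPS_184 or Control_LPS_185. For the cytokines Il1b (0.39 ± 0.87, adjusted p 0.85), Tnf (-0.67 ± 0.85, adjusted p 0.719) and Il6 (0.13 ± 0.53, adjusted p 0.928) no difference between the genotypes was detectable with 3 mice per group.

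**Figure D4:**
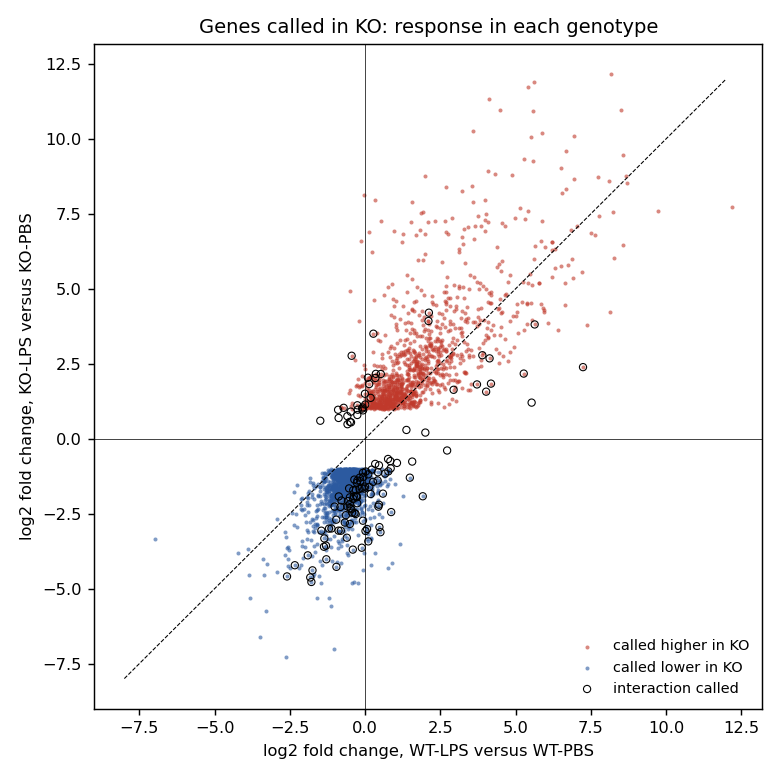
Log2 fold change after LPS in KO (vertical axis) against that in WT (horizontal axis) for the genes called in KO, red for higher and blue for lower, with open circles for the 27 and 98 genes with a called interaction and a dashed line where both are equal. The blue points crowd below the line, at a median of -0.59 in WT, and 78 of the circles lie among them. Genes chosen for their change in KO tend to lie there, so their position is no measure of the difference.

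Peak lists from pools of KO microglia (2 mice per pool for ATAC-seq, which marks open chromatin, and 5 for ChIP-seq) gave the state of the gene starts, with no replicate. A peak within 1000 bp of the gene start was counted, with 1 annotated start per gene. Peaks at other starts of a gene were therefore not counted. More of the lowered genes than of all genes had marks of active starts in KO-PBS. An ATAC peak was present in 80.05% of the called-lower genes (95% Wilson interval 77.8% to 82.1%, counting error only), in 63.1% of the called-higher genes (60.2% to 65.8%) and in 67.0% of all genes tested. H3K27ac, a mark of active promoters and enhancers, was at 79.5%, 58.5% and 65.0%, and H3K4me3, a mark of promoters, at 84.8%, 75.7% and 73.3%. H3K27me3, the Polycomb mark, was found at 16.4% of the lowered, 33.2% of the raised and 24.0% of all starts. In KO-LPS an ATAC peak stood at 79.97% of the lowered and 69.1% of the raised starts. Peaks in KO-LPS at starts that had none in KO-PBS were at 6.78% of the raised, 1.25% of the lowered and 2.47% of all genes.

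These shares moved with the level of the genes in KO-PBS. In the lowest of 4 equal bins by KO-PBS level, H3K27me3 was at 67.0% of the raised genes, against 42.4% of all genes there, and only 48 lowered genes fell in that bin. That bin did not compare like with like. Its raised genes had a lower median KO-PBS level than all its genes (0.0386 against 0.193 CPM per kb of exon). More of them were protein coding (80.4% against 48.6%). Genes near 0 in KO-PBS could pass the filter on low counts through the LPS groups, which favours silent starts among the raised genes. In the highest bin H3K27me3 was at 7.59% of the raised and 9.97% of the lowered genes, beside 8.83% of all. ATAC peaks in KO-PBS were at 88.5% of the lowered and 90.8% of the raised genes of that bin, beside 92.3% of all. Among named genes, Nos2 and Lcn2 had an H3K27me3 peak and no ATAC peak in either pool. Il1b and Cxcl1 had an ATAC peak in KO-LPS alone, and the starts of Sall1, Rgs2 and Ypel2 carried ATAC, H3K4me3 and H3K27ac peaks and no H3K27me3 peak. Other named genes differed from these examples. The raised genes Ptges, Saa3, Mt2, Ptgs2, Rnd1, Il12b, Trem1 and Tnfsf9 had an ATAC peak in both pools. For Ptges the RefSeq promoter lay 26566 bp from the gene start used here, so its peak was not at that promoter. The lowered genes Cbfa2t3 and Lpar5 had no peak in any list, and the lowered gene Rnf144b had an H3K27me3 peak and no ATAC peak. Peak scores were not compared between pools.

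**Figure D5:**
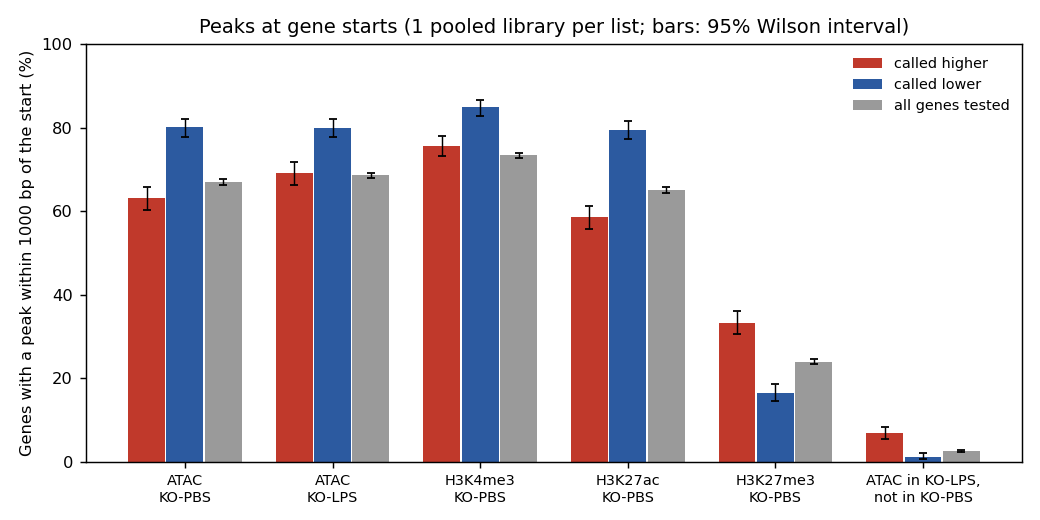
Percent of genes with a peak within 1000 bp of the gene start (vertical axis, from 0) for genes called higher, called lower and all genes tested, with 95% Wilson intervals for counting error and 1 pooled library per list. The called-lower genes have the highest shares for ATAC, H3K4me3 and H3K27ac, at 80.05%, 84.8% and 79.5% in KO-PBS, and the called-higher genes have the highest share of H3K27me3, at 33.2%.

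In length and kind the raised and lowered genes were close. The median gene span was 19811 bp for the raised and 19251 bp for the lowered genes, beside 15751 bp for all genes tested, and 86.5% and 85.4% were protein coding, beside 75.8%. Over 10 equal bins of all genes by span, the share called lower was 1.43% in the shortest, reached 9.91% in the sixth and was 5.15% in the longest. By chromosome, the called-lower share ran from 3.72% on chromosome 3 to 11.1% on chromosome 14 among the autosomes.

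Markers of other cells moved together with the response. Of 12 neuron markers 6 rose and none fell, and their summed level lay between 5.74 and 10.8 CPM in KO-PBS and between 33.5 and 66.6 CPM in KO-LPS. Of 9 astrocyte markers 5 rose, from 184.6 to 195 CPM to 432 to 520 CPM, of which Slc1a3 held most, at 170.1, 158 and 157 CPM in KO-PBS and 430.0, 386 and 442 CPM in KO-LPS, and 3 rose without KO_PBS_638, KO_PBS_642 or KO_LPS_600. Border macrophage markers rose in 4 of 7 tested (19.7 to 34.9 CPM against 52.3 to 66.3 CPM), and in 0 of 7 without KO_PBS_642 or KO_LPS_194, 1 without KO_PBS_638 and 2 without KO_PBS_641, KO_LPS_193 or KO_LPS_600. Of 4 tested monocyte markers 1 rose (40.1 to 86.6 CPM against 109 to 119 CPM), namely Vcan at 1.12, 1.19 and 0.846 CPM in KO-PBS and 2.40, 4.79 and 10.3 CPM in KO-LPS (log2 fold change 2.47, and 1.77 without KO_LPS_600), and 2 rose without Control_PBS_170 or Control_PBS_175. The 11 lymphocyte markers summed to 1.25 to 1.74 CPM and to 5.13 to 5.57 CPM, of which Klrb1c held 0.905, 1.48 and 0.966 CPM in KO-PBS and 4.52, 4.15 and 4.84 CPM in KO-LPS, with Nkg7, Ncr1 and Gzma at 0 in all KO libraries. Oligodendrocyte markers were at 134 to 148 CPM and at 119 to 143 CPM, and neutrophil markers at 939 to 961 CPM and at 848 to 1015 CPM, nearly all from Csf3r (849, 847 and 990 CPM in KO-LPS), with Ly6g at 0 throughout and Ngp, S100a8, S100a9, Camp and Retnlg almost confined to KO_LPS_600 among the KO libraries. Endothelial markers were at 38.0 to 54.6 CPM and at 46.9 to 70.7 CPM with Tek at 0, and erythrocyte markers at 7.55 to 19.6 CPM and at 10.7 to 55.5 CPM. The part of these cells in the response was not tested. Of 25 mitochondrial genome genes 14 rose (median 0.57), and the count was 2 without KO_PBS_642, 5 without KO_LPS_193 and 6 without KO_PBS_641, against 2 under scaling by total counts and 3 with KO_LPS_600 set alone.

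Across the called genes, KO_LPS_600 lay farthest from KO-PBS more often than the other two. It was the highest of the 3 KO-LPS libraries for 66.5% of the called-higher genes and the lowest for 63.9% of the called-lower genes, with median log2 differences from the other two of 0.28 and -0.27. Without it 882 genes were called higher and 987 lower, and set alone against KO-PBS, with its spread assumed to equal that of the other groups, it gave 961 and 1046. It was also the KO library with the highest neutrophil genes, named above, with the monocyte gene Chil3 at 2.75 CPM against 0 in both other KO-LPS libraries, and with the highest haemoglobin gene levels (Hbb-bs at 18.2 CPM against 10.0 and 2.37 CPM), and their part in its response was not tested.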

How the data were processed

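RNA was measured in 12 libraries of sorted microglia, 3 mice per group, and peaks in pooled ATAC-seq and ChIP-seq libraries of KO mice. In the deposited RNA table each gene has expected counts that the authors obtained with STAR 2.7.3a and featureCounts 2.0.0 on GRCm38, with fractions where reads were shared. The deposited peak lists give signal, scores and −log10 p or q values as the authors' peak callers (Genrich 0.5 for ATAC, SPAN for the marks) wrote them, and only peak positions and, in 1 alternative, scores were used. The H3K4me1 list was not used because its label and file name disagree. The KO table had 0 columns that could not be assigned, and the authors' own comparisons were not used.

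Expected counts, for which counts had been assumed, were rounded to whole numbers (at least 99.999% of each total kept), filtered with filterByExpr, scaled by TMM and fitted on all 12 libraries with the quasi-likelihood test of edgeR 4.0.16 (R 4.3.3). Adjusted p values are Benjamini-Hochberg values over all 17460 genes, and standard errors (SE) were derived from each fold change and its F statistic. Lists and peak shares were computed in Python 3.11.15 and have no test. The steps were tested on simulated data.

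Gene lists and members were chosen with earlier results of these data known. Some items are not reported here. Named genes are the 15 largest changes per direction among called genes with at least 5 CPM over the 6 KO libraries and no overlap between groups. Under the same conditions they include the 10 per direction with the highest CPM. Also named are the 4 largest passing changes per list, the 8 largest called interactions per direction, and Ercc1 and genes the study names. Nos2, Lcn2, Il1b, Sall1 and the genes set beside them at the peaks were picked after their values were seen. Alternatives were DESeq2 1.42.0, limma 3.58.1 with and without surrogate variables (sva 3.50.0, 4 estimated and 3 used, the most that could be fitted), other scalings and filters, the KO libraries alone, KO_LPS_600 alone, each library left out, and other peak windows. Intervals are at 95% and cover counting error only.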

Additional observations from a re-analysis of the deposited data

Results flagged for a closer look

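The response to LPS differed between the genotypes by the interaction test of edgeR (adjusted p under 0.01 and a log2 difference past 1) for 27 genes with a higher and 98 genes with a lower log2 response in KO than in WT. Among named genes that passed it at an adjusted p under 0.05, the log2 response was lower in KO by the largest amounts for Egr1 (-4.85), Egr2 (-4.33), Spry1 (-3.63), Mex3b (-3.53), Rnf144b (-3.32), Tet1 (-3.29), Epha2 (-3.12) and Spp1 (-3.10). The same direction was found for Sox4 (-2.73), Ypel2 (-2.64), Dnajc28 (-2.13), Rgs2 (-2.13), Cbfa2t3 (-2.00), Sh2d3c (-1.99), Lpar5 (-1.88), Arhgap5 (-1.33) and Ivns1abp (-0.96). The log2 response was higher in KO for Pstpip2 (3.23), Zhx2 (3.21), Hsph1 (2.09), Nfil3 (2.08), Cd14 (1.97), N4bp1 (1.94), Slc31a2 (1.86), Slc39a14 (1.82), Hivep1 (1.81), Tlr2 (1.52) and Fth1 (0.97). Of these 28 genes 23 passed in all 21 alternatives, at adjusted p values up to 0.0449. Some of them were named because their called interaction was among the largest in these data, which favours their passing. With 3 samples in each group, no test for a single outlying sample was run.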

How the results depend on the processing

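Without any one library, 882 to 1429 genes were called higher and 987 to 1315 lower in KO-LPS versus KO-PBS, and the interaction was called for 0 to 64 genes with a higher and 1 to 207 with a lower response in KO. Counting every gene with an adjusted p below 0.05, these were 3097, 3370, 270 and 538. Scaling by total counts gave 2046 lowered genes and 163 interactions with a lower response. The interaction counts, higher and lower, were 80 and 223 when low counts were kept, 162 and 389 by DESeq2, 99 and 277 with limma and surrogate variables, 71 and 325 without them, and 138 and 187 with KO_LPS_600 alone, and the cause was not tested. The other alternatives kept these counts within 1.5 times. With a window of 2000 bp, 71.9% of raised, 82.5% of lowered and 71.4% of all genes had a KO-LPS ATAC peak. For all genes it was 67.7% with equal numbers of peaks and 67.1% with summits, and a peak in KO-LPS alone was at 2.72% with 2000 bp and 2.01% with equal numbers. With KO_LPS_600 alone the border macrophage gene Cd163 turned from a rise to -0.20 and Slc16a14 to 0.00. Of 252 named genes 248 passed the test, which was a condition for naming most of them and is no measure of stability. Of the 248, 59 lost it in at least 1 of 22 settings. No paired analysis was possible because the groups share no animal numbers. Genes with few counts in KO-PBS have folds known only as wide intervals or lower bounds.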

Other observations

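Gene families of the cell surface that were not described above moved in both directions in KO-LPS versus KO-PBS. Their lowered shares were near the 19.3% of all genes tested. They were 18.2% for semaphorins, plexins and neuropilins, 17.4% for potassium channel genes and 20.6% for solute carriers. The raised shares were 31.8%, 28.3% and 24.8%, in that order, beside 17.7% of all genes tested. Of 22 semaphorins, plexins and neuropilins tested, which guide axons and also immune cells, 7 rose and 4 fell by edgeR (median log2 fold change 0.46), and 2 fell with KO_LPS_600 set alone against KO-PBS. Sema4b was at 30.8, 33.4 and 24.0 CPM in KO-PBS and 2.11, 3.42 and 1.80 CPM in KO-LPS, a log2 fold change of -3.60 ± 0.29 (SE), and its groups did not overlap. Sema7a was at 0, 0 and 0.151 CPM in KO-PBS and 1.92, 1.05 and 3.92 CPM in KO-LPS, and its fitted log2 fold change of 5.23 went to 9.02 without KO_PBS_642 and to 4.63 and 4.62 without KO_PBS_638 or KO_LPS_600. Of 46 potassium channel genes 13 rose and 8 fell (median 1.04), and 8 rose and 5 fell with KO_LPS_600 set alone. Kcnd2 was at 0.125, 0.156 and 0.151 CPM in KO-PBS and 2.27, 1.00 and 1.80 CPM in KO-LPS (3.53 ± 0.70 SE). These levels were low in every library, although the groups were apart. Of 238 solute carrier genes 59 rose and 49 fell (median 0.04), shares of 24.8% and 20.6% beside 17.7% and 19.3% of all genes tested, and 38 rose with KO_LPS_600 set alone.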
